A study of Homo sapiens with 4 samples.

Results

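CEBPB binding was examined at 9 genes that restrain mitogen-activated protein kinase (MAPK) signalling: the dual-specificity phosphatase genes DUSP1, DUSP4, DUSP5, DUSP6 and DUSP10, the Sprouty genes SPRY1, SPRY2 and SPRY4, and SPRED1. CEBPB is a C/EBP transcription factor, which binds DNA as a dimer through a basic leucine zipper domain. Its sites were mapped by chromatin immunoprecipitation and sequencing (ChIP-seq) in cultured NCM460 cells, a line from the epithelium of the human colon. The cells grew in serum-containing medium, and no treatment, knockdown or second genotype was part of the design, so nothing here compares conditions. There were 2 ChIP samples made with an antibody to CEBPB and 2 input samples, of sheared chromatin DNA without immunoprecipitation, and the replicates were described as independent experiments. Peak lists carry no expression values, so the identity of the line was not checked against marker genes.

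The windows were placed by gene position and not by signal, but the genes were chosen with earlier results of these data known. A locus was everything within 100 kb on either side of the transcription start in the hg19 build, with the start given to the nearest 1 kb. Inside these windows lay 110 of 80530 summits (the highest point of a peak) in replicate 1 and 130 of 104307 in replicate 2. Of the 25602 distinct regions on chromosomes 1 to 22 and X that the authors' table of the irreproducible discovery rate (IDR) holds, 43 were in the windows. The IDR scores how well 2 replicates rank the same peaks, and all regions in the table have an IDR of at most 0.05. They are called reproducible here.

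The MAPK pathway passes signals from growth factor receptors through RAS and RAF kinases to ERK, and stress signals through related cascades to p38 and JNK. DUSP proteins of this group remove phosphate from the activated kinases, and Sprouty and SPRED proteins act higher up, between the receptor and RAF. Many of these genes are switched on by the pathway that they restrain, which makes them feedback inhibitors. CEBPB is itself phosphorylated by ERK in several cell types.

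Reproducible CEBPB regions were present at 8 of the 9 loci. DUSP5, which encodes a nuclear phosphatase specific for ERK, had 7 regions in its window and DUSP4, another nuclear phosphatase, had 6. DUSP1, DUSP6, DUSP10, SPRY1, SPRY4 and SPRED1 had 5 each. SPRY2 had none. Among 12728 fixed tiles of 200 kb that held at least 1 summit, 12.7% held 5 or more regions, 7.53% held 6 or more, 4.39% held 7 or more and 29.4% held none. The windows are centred on genes and the tiles are not, and the difference was not tested.

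**Figure D1:**
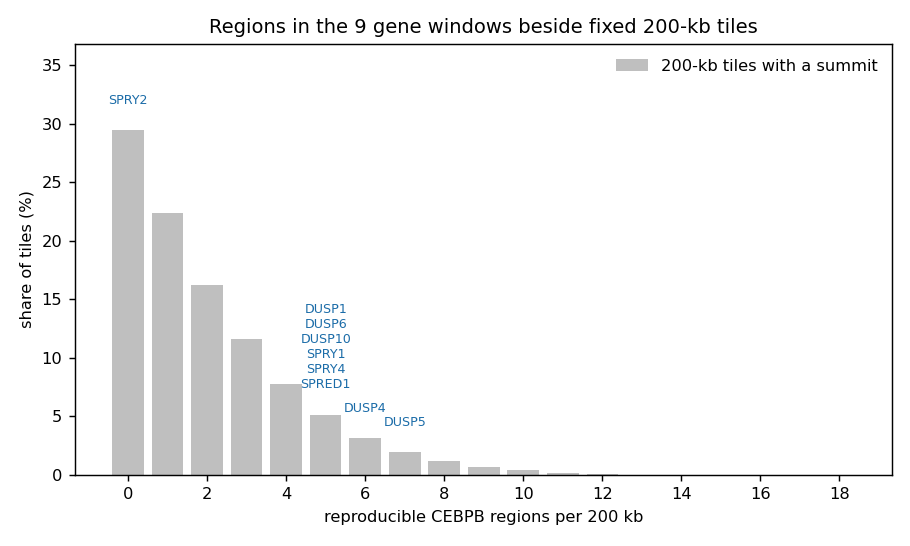
Horizontal axis, number of reproducible CEBPB regions per 200 kb; vertical axis, share of 12728 tiles of 200 kb with a summit (%). Grey bars are the tiles, and the gene names stand above the number of regions in their own windows. SPRY2 stands at 0 regions, 6 loci at 5, DUSP4 at 6 and DUSP5 at 7.

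Summed over 1.8 Mb, the windows held 23.9 reproducible regions per Mb (95% exact Poisson interval 17.3 to 32.2), against 8.43 per Mb over all 3036.3 Mb (8.33 to 8.54). The intervals cover counting error only, and sites cluster, so they are too narrow. The 3036.3 Mb are full chromosome lengths, centromeres included, whereas the windows are centred on genes. The difference in density was not tested. The 5 DUSP windows held 28 regions, or 28.0 per Mb, and the 4 Sprouty and SPRED1 windows held 15, or 18.8 per Mb. In replicate 1, 47 of the 110 summits (42.7%, 95% exact binomial interval 33.3 to 52.5%) lay in a peak of the IDR table, against 35.8% of all summits. In replicate 2 the share was 47 of 130 (36.2%, interval 27.9 to 45%), against 28.1%. Some summits share a peak and summits cluster, so the binomial intervals are too narrow as well. Pairing was commoner than reproducibility by rank. A summit of the other list lay within 100 bp for 89 summits of each replicate, which is 80.9% in replicate 1 and 68.5% in replicate 2, against 79.0% and 61.0% over all summits.

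The height of the regions in the windows was close to that of regions elsewhere. Height is given in 3 ways: as fragments (extended ChIP reads that cover the summit), as the input background in expected fragments, and as the authors' fold enrichment of the ChIP signal over that background. The background is on the scale to which the peak caller brought each ChIP library, so fragments divided by background do not give the fold. The median region in the windows had a fold of 16.8 in replicate 1 and 18.0 in replicate 2, whereas the median of all reproducible regions was 15.3 and 16.0. Median fragments were 65 and 87 in the windows and 58 and 76 over all regions. Median input background was 2.14 and 3.00 expected fragments in the windows and 2.16 and 2.68 over all regions. By mean fold, 24 of the 43 regions were above the median of all regions, and 5 were in the top decile, against the 10.0% that a decile holds. An IDR of at most 0.01 was reached by 26 of the 43 regions (60.5%), against 60.6% of all regions. The regions had a median width of 424 bp (range 243 to 985 bp), against 421 bp over all regions.

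Of the 43 regions, 7 lay within 5 kb of a start and 34 lay more than 20 kb away. Most of the ground in a window is also more than 20 kb from the start. Within 50 kb of a start lay 29 regions, and 14 lay in the rest of the windows, which is of equal length. Whether regions gather near the starts was not tested. On the strand of the gene, 27 of the 43 were upstream and 16 downstream of the start. DUSP1, DUSP6 and SPRED1 had all 5 of their regions upstream. DUSP10, a phosphatase that acts on p38 and JNK, had 4 of its 5 regions downstream of the start, and so had SPRY1. By order in RefSeq, the protein-coding neighbours are NEURL1B and ERGIC1 for DUSP1, SMNDC1 and SMC3 for DUSP5, and KITLG and POC1B for DUSP6. A further protein-coding entry, POC1B-DUSP6, overlaps DUSP6. The neighbours are HLX and HHIPL2 for DUSP10, and NDFIP1 and FGF1 for SPRY4. DUSP4 lies between KIF13B and SARAF, SPRY1 between AFG2A and ANKRD50, SPRY2 between NDFIP2 and SLITRK1, and SPRED1 between TMCO5A and FAM98B. Distances to these neighbours were not measured, so they may lie outside the windows. Which gene a region acts on was not measured either.

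**Figure D2:**
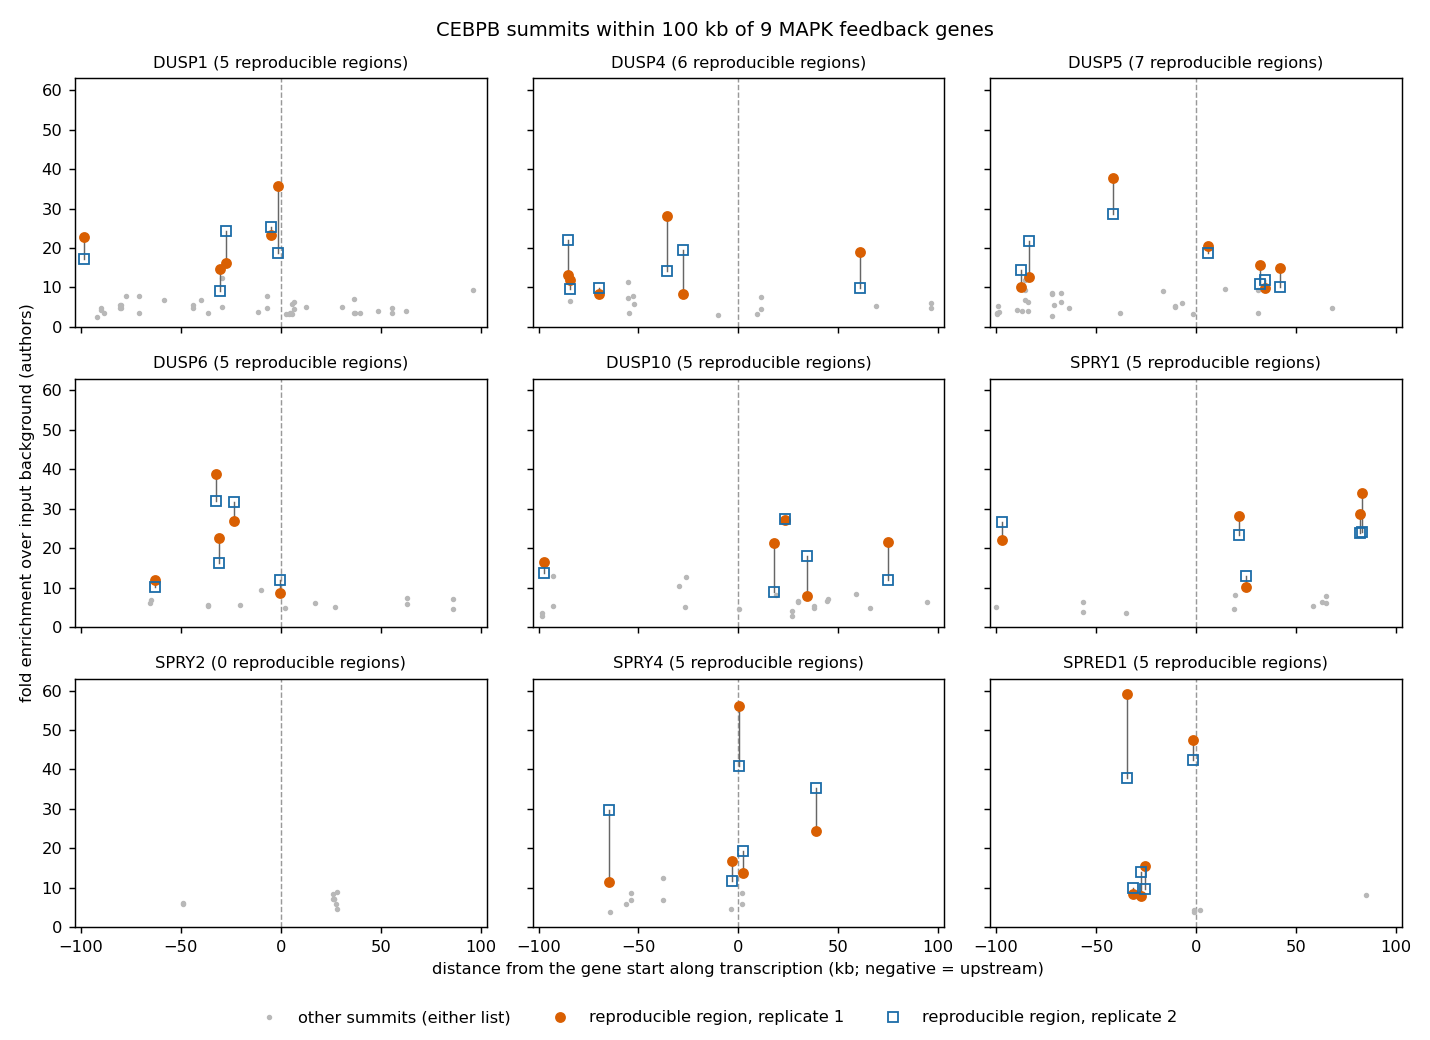
Horizontal axes, distance from the gene start in kb along the direction of transcription, with negative values upstream; vertical axes, the authors' fold enrichment over input background. Orange circles and blue squares joined by a line are replicates 1 and 2 of 1 reproducible region, grey dots are other summits of either list, and the dashed line is the gene start. SPRY4 and SPRED1 carry regions with folds above 40 in 1 or both replicates, while the summits of SPRY2 stay under 10.

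Regions closest to a gene start were found at SPRY4, DUSP6, DUSP1 and SPRED1, each within 1.5 kb. At SPRY4 and DUSP6 a region lay within 1 kb of the start, so the annotated promoter sequences of these genes are shown. They are the 250 bases before the start in RefSeq (GRCh38.p14), read 5′ to 3′ on the strand of the gene; the summits are in hg19 and were not placed on them. The SPRY4 window is chr5:142324248-142324497 on the minus strand, and its start lies 774 bases inside the outermost annotated end of the gene. The DUSP6 window is chr12:89352502-89352751 on the minus strand. Capitals mark a CCAAT box in the orientation ATTGG.
SPRY4: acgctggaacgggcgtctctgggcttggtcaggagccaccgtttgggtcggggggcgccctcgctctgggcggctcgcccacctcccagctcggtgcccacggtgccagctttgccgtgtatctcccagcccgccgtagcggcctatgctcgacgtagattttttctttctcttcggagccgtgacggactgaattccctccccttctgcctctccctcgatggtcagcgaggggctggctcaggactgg
DUSP6: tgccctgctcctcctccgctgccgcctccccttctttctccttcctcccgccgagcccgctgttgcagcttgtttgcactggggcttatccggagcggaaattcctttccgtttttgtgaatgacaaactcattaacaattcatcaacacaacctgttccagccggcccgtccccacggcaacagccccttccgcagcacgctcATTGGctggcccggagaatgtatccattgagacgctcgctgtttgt

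Both strands of these windows were searched for the letters TTGCNNAA (a C/EBP motif), its palindrome TTGCGCAA, TGACGTCA (a cAMP response element), TGANTCA (an AP-1 motif) and CCAAT. TTGCGCAA is a special case of TTGCNNAA, and the other motifs do not overlap each other in these windows. Of the 9 genes, 7 had a total of 11 such windows. TTGCNNAA was present in 1 of the 11, a window of SPRY1, against 9.05% of 35114 promoter windows of the same length. TGACGTCA was present in the window of DUSP1, against 1.65% of all windows. CCAAT was present in the window of DUSP6 and, 4 times, in 1 window of DUSP10, against 32.0% of all. No window of the members held TTGCGCAA or TGANTCA, which 0.131% and 6.57% of all windows held. The motifs are matches of letters only.

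SPRY4 encodes a Sprouty protein, an inhibitor of signalling from receptor tyrosine kinases to RAS and RAF. The region at its start, on chromosome 5 (band 5q31.3) from 141704312 to 141704811, had 181 fragments in replicate 1 and 203 in replicate 2. The input background there was 2.00 and 3.00 expected fragments. The fold was 56.2 and 40.8, with a mean of 48.5 ± 10.9 (SD, n = 2), which ranked 197 among the 25602 regions. The summits of the replicates lay 2 bp apart. Its distance to the start, 0.4 kb, is within the precision of the start, so its side is not resolved; it is counted above as downstream.

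The other regions of SPRY4 were lower, and 2 of them flanked the start. A region 2.3 kb downstream had 34 and 66 fragments and a mean fold of 16.5 ± 4.02 (SD, n = 2), and a region 3.2 kb upstream had 44 and 72 fragments and a mean fold of 14.3 ± 3.61 (SD, n = 2). SPRY4 was thus the locus with the most regions within 5 kb of the start, 3 of the 7. A region 39.1 kb downstream (chromosome 5, 141665624 to 141666035) had 104 and 131 fragments, over a background of 3.00 and 2.00, and folds of 24.3 and 35.3. The region 64.6 kb upstream (chromosome 5, 141769045 to 141769765) had folds that stood far apart, 11.5 in replicate 1 and 29.7 in replicate 2. It had 61 and 117 fragments, over a background of 4.0 and 2.18 expected fragments. All 5 regions of SPRY4 had an IDR of at most 0.01.

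SPRED1 encodes a protein that brings neurofibromin, which switches RAS off, to the membrane. It carried 2 of the 3 regions in the windows with a mean fold over 40. The region 34.4 kb upstream, on chromosome 15 (band 15q14) from 38510415 to 38510902, had 131 fragments in replicate 1 and 188 in replicate 2. The fold was 59.1 and 37.8, and its mean of 48.5 ± 15.03 (SD, n = 2) ranked 200 among all regions. The background at this summit was 1.07 expected fragments in replicate 1, near the lowest value that the caller assigns in that library (1.00), and 3.00 in replicate 2. The region 1.5 kb upstream, from 38543273 to 38543864, had 108 and 143 fragments over a background of 1.13 and 1.72. Its folds of 47.4 and 42.5 were closer to each other, with a mean of 44.9 ± 3.48 (SD, n = 2) and rank 352. In replicate 2 this region had the higher fold of the pair, and in replicate 1 the one at 34.4 kb. The summits lay 1 bp apart.

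The other 3 regions of SPRED1 lay between 25.7 and 31.7 kb upstream and were weak. The one 25.7 kb upstream had 49 and 60 fragments and a mean fold of 12.6 ± 4.01 (SD, n = 2). The one 31.7 kb upstream had 17 and 31 fragments, and the one 27.4 kb upstream had 16 and 52. The background of both was at the floor of 1.00 in replicate 1. In the 100 kb downstream of the start of SPRED1 no reproducible region was found.

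SPRY1 and SPRY2 encode relatives of SPRY4. Neither had a reproducible region within 20 kb of the start. At SPRY1, on chromosome 4, the nearest region lay 21.8 kb downstream (124339630 to 124340007), with 90 and 86 fragments and a mean fold of 25.7 ± 3.45 (SD, n = 2). The strongest by mean fold lay 83.2 kb downstream (124400988 to 124401552), with 109 and 150 fragments, folds of 34.0 and 24.2 and a mean of 29.1 ± 6.94 (SD, n = 2). Its neighbour at 82.2 kb (124399984 to 124400464) had 77 and 118 fragments and a mean fold of 26.2 ± 3.36 (SD, n = 2), lower than the region at 83.2 kb in both replicates. A region 97.3 kb upstream had 63 and 89 fragments, folds of 22.1 and 26.6 and a mean of 24.4 ± 3.14 (SD, n = 2). In replicate 2 alone this region, and not the one at 83.2 kb, had the highest fold of the locus. The fifth, 24.9 kb downstream, was low in both replicates, with 21 and 48 fragments.

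At SPRY2, on chromosome 13 (band 13q31.1), 4 summits were called in replicate 1 and 5 in replicate 2, and none was in the IDR table. A count of 0 in 1 window allows up to 3.69 regions (upper bound of the 95% exact Poisson interval, counting error only). The summits formed 2 groups. One lay 25.9 to 28.0 kb downstream, with 11 to 22 fragments in replicate 1 and 20 to 26 in replicate 2. The other was a single position 49.0 kb upstream, with 12 and 16 fragments and folds of 6.1 and 5.9. All 4 summits of replicate 1 had a partner within 100 bp in replicate 2, so the positions recurred at a low height. The highest folds were 8.4 in replicate 1 and 8.9 in replicate 2, and both stood on background at the floor. The peak list of replicate 1 had a median background of 1.19 expected fragments in this window, against 2.14 over all summits.

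DUSP6 encodes a cytoplasmic phosphatase specific for ERK. Its strongest binding was a group upstream, toward POC1B. The region 32.3 kb upstream, on chromosome 12 (band 12q21.33) from 89777881 to 89778606, had 209 and 219 fragments, over a background of 4.0 and 4.52 expected fragments. Its folds were 38.9 and 31.9, with a mean of 35.4 ± 4.98 (SD, n = 2) and rank 1323. A second region 31.2 kb upstream (89777005 to 89777375) had 98 and 121 fragments and a mean fold of 19.5 ± 4.47 (SD, n = 2). Another, 23.5 kb upstream (89769196 to 89769697), had 148 and 162 fragments and a mean fold of 29.3 ± 3.37 (SD, n = 2). The region at the start itself, 0.6 kb upstream (89746340 to 89747133), was far lower, with 45 and 60 fragments and folds of 8.5 and 11.9. Both folds were below the medians of all reproducible regions, and the region ranked 22938. It did not reach an IDR of 0.01.

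DUSP1 encodes a nuclear phosphatase for p38, JNK and ERK that is induced early after stimulation. A pair of tall regions lay just upstream on chromosome 5 (band 5q35.1). The region 1.5 kb upstream (172199186 to 172199971) had 153 fragments in replicate 1 and 185 in replicate 2, and the region 4.7 kb upstream (172202437 to 172202956) had 199 and 220. At 1.5 kb the background was 3.00 and 7.0 expected fragments and the folds were 35.7 and 18.6, with a mean of 27.2 ± 12.1 (SD, n = 2). At 4.7 kb the background was 7.0 and 6.0 and the folds were 23.2 and 25.3, with a mean of 24.2 ± 1.49 (SD, n = 2), so the region at 1.5 kb was the stronger by fold in replicate 1 and the one at 4.7 kb in replicate 2. The window of DUSP1 had the highest median background of the 9 in replicate 1, 4.0 expected fragments, and 3.00 in replicate 2. It held 23 summits in replicate 1, as many as the window of DUSP5, and the most of any window in replicate 2, 28. The tallest summit of the locus in both replicates was the one at 4.7 kb, and the region 98.3 kb upstream (172296100 to 172296506), with 172 and 170 fragments, exceeded the one at 1.5 kb in replicate 1. Regions 27.7, 30.4 and 98.3 kb upstream had mean folds of 20.3, 11.9 and 20.0.

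DUSP5 had regions on both sides of its start on chromosome 10 (band 10q25.2). The strongest lay 41.4 kb upstream (112216232 to 112216965), with 127 and 177 fragments, folds of 37.8 and 28.5 and a mean of 33.1 ± 6.55 (SD, n = 2). The nearest lay 6.0 kb downstream (112263726 to 112264127), with 68 and 84 fragments and a mean fold of 19.5 ± 1.20 (SD, n = 2). Regions 32.2, 34.6 and 41.9 kb downstream had mean folds of 13.2, 10.9 and 12.5, below the median of 15.8 over all regions. Those 83.7 and 87.7 kb upstream had 17.2 and 12.2. One tall site therefore stood among 6 lower ones, and replicate 1 was the higher by fold and the lower by fragments at that site. For DUSP5 and DUSP4 the strand is background knowledge, since no promoter window was used for them.

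DUSP10 on chromosome 1 (band 1q41) had its strongest region 23.6 kb downstream of the start (221891771 to 221892456), with 145 and 183 fragments. That distance is to the summit in the IDR table, and the summits of both replicates lay 23.9 kb downstream. The folds were 27.1 and 27.4, the closest match of replicates among the strongest regions, with a mean of 27.3 ± 0.27 (SD, n = 2). The nearest region, 17.6 kb downstream (221898247 to 221898639), had folds of 21.3 and 8.8, but its fragments ran the other way, 58 and 87. Its background was 1.58 in replicate 1 and 7.0 in replicate 2. Regions 34.4 and 74.9 kb downstream and 97.3 kb upstream had mean folds of 12.9, 16.7 and 15.1. This window also held the tallest summit without a partner in the other list: 26.2 kb upstream, replicate 2 had 63 fragments and a fold of 12.8, and replicate 1 had no summit within 100 bp.

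DUSP4 on chromosome 8 (band 8p12) had the lowest maximum of mean fold among the 8 loci with regions, within 100 kb; in replicate 1 alone the maximum of DUSP10 was lower (27.1, against 28.2 at DUSP4). Its strongest region by mean fold, 35.9 kb upstream (29243694 to 29244084), had 62 and 87 fragments over a background of 1.07 and 4.0. The folds were 28.2 and 14.1, with a mean of 21.2 ± 9.98 (SD, n = 2). The nearest region lay 27.7 kb upstream, with 44 and 58 fragments and folds of 8.4 and 19.5. The region 85.5 kb upstream had 39 and 64 fragments and folds of 13.1 and 22.1, so the strongest region was at 35.9 kb in replicate 1 and at 85.5 kb in replicate 2. Regions 69.7 and 84.5 kb upstream had mean folds of 9.1 and 10.7, and the region 60.8 kb downstream had 14.5. Only 2 of the 6 regions reached an IDR of 0.01.

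By the mean fold of the strongest region the loci ranked SPRY4, SPRED1, DUSP6, DUSP5, SPRY1, DUSP10, DUSP1 and DUSP4. No step between neighbours in this order was larger than the SD of both neighbours. The widest step, 13.1 between SPRED1 and DUSP6, was below the SD of 15.03 at SPRED1. These SDs include a shift shared by the loci, since the fold was higher in replicate 1 at each of these regions but that of DUSP10. Within each replicate the strongest region of SPRED1 exceeded that of DUSP6, with folds of 59.1 and 37.8 at SPRED1 and 38.9 and 31.9 at DUSP6. DUSP6 also exceeded DUSP5 in both replicates, as DUSP5 did SPRY1 and DUSP1 did DUSP4. For the regions strongest by mean fold, the order of SPRY4 and SPRED1, of SPRY1 and DUSP10, and of DUSP10 and DUSP1 differed between the replicates. By the highest fold of each replicate alone, SPRED1 exceeded SPRY4 in both, with 59.1 and 42.5 against 56.2 and 40.8. The other pairs still differed. On the scale of fragments the order of these regions was different: DUSP6 led with 209 and 219, while the strongest region of SPRED1 had 131 and 188. The DUSP1 region at 4.7 kb, which was not the strongest of its locus by fold, had 199 and 220. The 15 regions of the Sprouty and SPRED1 windows had a median of 24.4 mean fold, and the 28 of the DUSP windows had 15.9. All 3 regions with a mean fold over 40 were at SPRY4 and SPRED1. Neither difference was tested. The window backgrounds differed too, with medians of 1.10 to 1.61 in replicate 1 at the Sprouty and SPRED1 loci and 2.00 to 4.0 at the DUSP loci (1.40 to 2.18 and 1.56 to 3.37 in replicate 2), and their part in the folds was not tested.

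**Figure D3:**
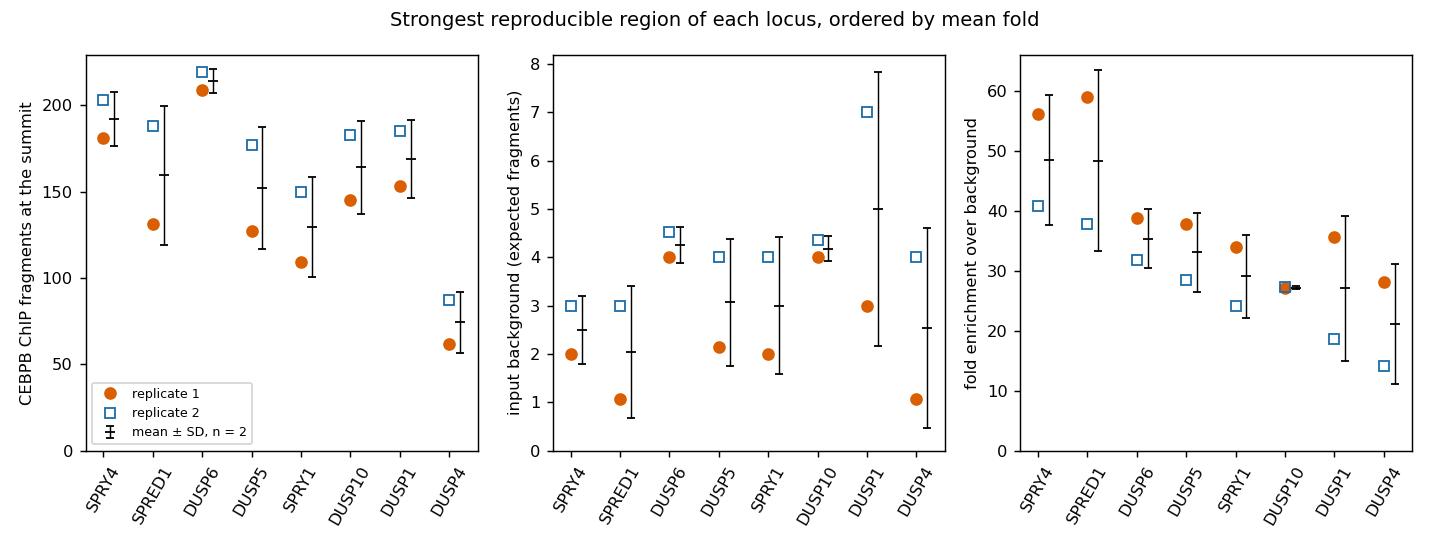
Vertical axes, from left to right, CEBPB ChIP fragments at the summit, input background in expected fragments and the authors' fold enrichment; horizontal axes, the 8 loci with a reproducible region, by mean fold. Orange circles are replicate 1, blue squares replicate 2, and black bars the mean ± SD (n = 2). Fragments are highest at DUSP6 (209 and 219), whereas folds are highest at SPRY4 and SPRED1, where the background is 1.07 to 3.00.

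To ask whether the replicates gave these regions the same height, the fragments of replicate 2 were compared with those of replicate 1 in all reproducible regions. Each region was tested against the median share of regions of like height with a two-sided exact binomial test, adjusted by the Benjamini-Hochberg method over 25530 regions, which include all 43 in the windows. At an adjusted p of at most 0.05, 2.92% of all regions differed, and 1 of the 43 in the windows did. This was the region 30.4 kb upstream of DUSP1 (chromosome 5, 172228146 to 172228646), with 56 fragments in replicate 2 and 78 in replicate 1. Its log2 ratio was 0.85 below that of regions of like height (log2 difference -0.85, exact binomial test, adjusted p = 0.032). It is 1 region between 2 libraries, and the p-value covers counting error only. The next regions by p were 27.4 kb upstream of SPRED1 (52 fragments in replicate 2 and 16 in replicate 1, exact binomial test, adjusted p = 0.087) and 64.6 kb upstream of SPRY4 (117 and 61, exact binomial test, adjusted p = 0.12).

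Replicate 2 had more fragments than replicate 1 at 36 of the 43 regions, against 85.5% of all regions, and the median ratio was 1.28, against 1.29. Fragments ranked the regions more alike in the replicates than folds did. Across the 43 regions Spearman's rho was 0.92 for fragments and 0.58 for fold, and over all regions 0.89 and 0.61. These are correlations across sites, which share libraries and are no replicates. At 16 of the 43 regions the fold was higher in one replicate while the fragments, relative to regions of like height, were higher in the other. The share over all regions was not counted, so whether this is particular to these loci is not known. The input background enters the fold and not the fragments, and its part in these differences was not tested.

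**Figure D4:**
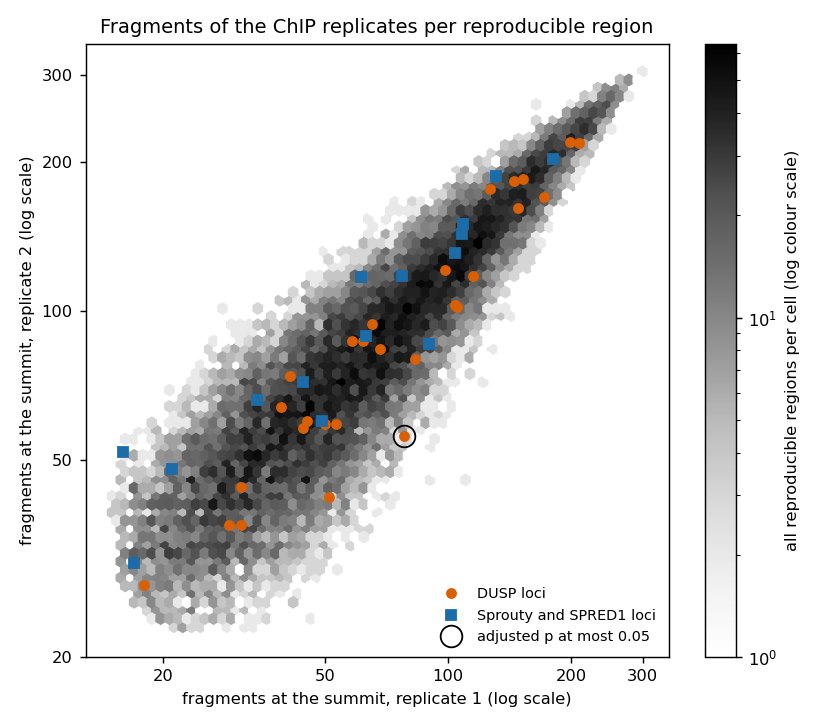
Horizontal axis, fragments at the summit in replicate 1; vertical axis, fragments in replicate 2; both on log scales. Grey cells count all reproducible regions, orange circles are regions of the DUSP windows, blue squares those of the Sprouty and SPRED1 windows, and the ring marks the DUSP1 region with an adjusted p of 0.032.

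Summits outside the IDR table overlapped the lower reproducible regions of these windows in fold. The mean folds of the reproducible regions ran from 9.07 to 48.5. The highest folds outside the IDR table were 12.9 in replicate 2, 92.7 kb upstream of DUSP10 (48 fragments), and 12.5 in replicate 1, 37.5 kb upstream of SPRY4 (33 fragments). Both had a partner within 100 bp in the other list. At the start of DUSP10, a summit at 0.3 kb in replicate 1 had a fold of 4.5 and no partner within 100 bp in replicate 2. The background was at the floor for 8.18% of the window summits in replicate 1 and 7.69% in replicate 2, against 10.8% and 17% over all summits.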

How the data were processed

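CEBPB ChIP and input samples of NCM460 cells were sequenced. Per the submitters' processing notes the build was hg19 and the tools were MACS2 2.1.2 (peak calling), Bowtie2 2.3.4 (alignment), SAMtools 1.9, bedtools 2.25.0 and FastQC 0.11.7; no settings are stated there. The deposited list of each ChIP sample gives the summit, the fold ratio over background, and the −log10 p-value and q-value, all made by the authors with their peak caller against input, per the file headers. All summits passed a q-value of 0.05. The authors' deposited IDR table gives a score (−log10 of the global IDR). In all, 2 of its columns with values of the single replicates were not used. Its intervals and summits were matched to the lists, and entries with the same interval were merged.

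Fragments and background were solved from fold and −log10 p: the caller adds a pseudocount of 1 to both sides of the fold, and p is a Poisson tail. With scales of 0.927 and 0.800 per ChIP read, whole reads came out at 99.92% and 99.98% of summits, within 0.005 on −log10 p. Tested on 2000 simulated summits per replicate, fragments were exact in 100%. Floors of the background were 1.00 and 1.36. Read totals are not held in the lists, so the depth is known only through fragments per summit, with medians of 24 and 28. No source used here says how duplicates were handled.

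Members and lists were chosen with earlier results of these data known. All 9 genes were named; in each window the strongest and nearest region, those within 5 kb, and others by fold were described. The list of other ERK feedback genes was not used, because the gene table is of another build than hg19; for the same reason no sequence at summits is given. Binomial tests used the median of 500 regions on either side; on 25530 simulated regions with counting noise, 90.5% of 200 regions changed 3-fold were recovered with 6 false calls. Chromosome lengths and bands came from circlize 0.4.16. The work was done in Python 3.11.15 with pandas 2.3.3, SciPy 1.17.1, NumPy 2.4.6, matplotlib 3.10.9 and statsmodels 0.14.6. The replicates come from 1 cell line.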

Additional observations from a re-analysis of the deposited data

How the results depend on the processing

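Of the 43 regions, 26 met the IDR threshold of 0.01, and 88 sites were counted as summit pairs within 100 bp at a q-value of at most 0.01. They were 39 to 42 when 1 replicate was left out and the strongest peaks of the other were counted, 29 within 50 kb and 64 within 200 kb. The median fold of 17.2 became 24.3, 9.18 and 19.5 at the stricter IDR, as summit pairs and within 50 kb, and 18.3 to 20.4 without a replicate; over all regions the same settings gave 20.5, 8.74, 15.8 and 15.7 to 16.4. Summits numbered 65 and 76 in replicates 1 and 2 within 50 kb, and 198 and 240 within 200 kb. The share of reproducible summits, 42.7% and 36.2%, was 80.9% and 68.5% by a partner within 100 bp. The 1 region that differed between replicates became 2 with one share for all regions (adding the SPRED1 region at 27.4 kb) and 0 at an IDR of at most 0.01, where the DUSP1 region is not tested. Within 200 kb SPRY2 gained a region of mean fold 12.5, and the strongest region was another one at DUSP1 (35.9), DUSP4 (35.7), DUSP5 (41.4) and DUSP6 (39.2); DUSP10 (27.3) was then below DUSP4. Without replicate 1 the strongest region moved at DUSP1 (to 4.7 kb upstream, fold 25.3), DUSP4 (85.5 kb upstream, 22.1), SPRY1 (97.3 kb upstream, 26.6) and SPRED1 (1.5 kb upstream, 42.5), so which region is named strongest at these loci rests on replicate 1. At DUSP1 it was also the one at 4.7 kb with fragments as height, and at SPRY1 the one at 21.8 kb within 50 kb. The number of loci with a region within 5 kb stayed at 4 or fell to 3, at the stricter IDR, where DUSP6 dropped out. The cause was not tested in any of these. No paired analysis was possible because no result here comes from a test of ChIP against input: the lists give the input only as the background inside each fold, not as values of its own for a fit. The start positions, given to 1 kb, limit which side of a start a close region is on.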
